A study of Mus musculus with 12 samples.

Results

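Expression of heat shock and chaperone genes was examined in mouse epiblast stem cells, pluripotent cells that resemble the epiblast after implantation, in response to CHIR99021 and XAV939. The list held 10 genes, Dnajb1, Dnajb4, Hsph1, Hspa8, Hspd1, Hspe1, Hsp90ab1, Hspa5, Hsf1 and Bag3. A gene was measured where a probe was annotated to it and to no other gene, and its brightest probe, by mean, represented it. This gave 8 of the 10 genes, among 19938 genes in all. Hsp90ab1, which encodes a constitutive cytosolic HSP90, and Hsf1, the transcription factor that switches on the heat shock response, were not analysed here, because no probe was annotated to either alone.

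The cells were of genetic background 129, and every culture was kept without serum for 12 h before treatment. Untreated cells were compared with cells given 3 µM CHIR99021 (2 h), 2 µM XAV939, or both compounds at these doses, with 3 arrays in each of the 4 groups. CHIR99021 inhibits GSK3 and stabilises beta-catenin, and XAV939 inhibits tankyrase, stabilises Axin and lowers beta-catenin. The time with XAV939 is 2 h in the sample labels and 4 h in the design text, and a serum content of 10% is recorded for the growth medium of every sample. The labels call the cells both epiblast and embryonic stem cells, and nothing in them says that replicates were separate cultures. The p-values therefore reflect only how far these samples differ from each other, and that variation may be technical.

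Chaperones bind unfolded or partly folded proteins and help them reach or regain their shape. HSP70 proteins do so in cycles of ATP hydrolysis, which J-domain proteins (HSP40) start and nucleotide exchange factors end, while HSP60 and HSP10 form a closed folding chamber in mitochondria. In the heat shock response, HSF1 binds heat shock elements in the promoters of many of these genes, whereas chaperones of the endoplasmic reticulum are induced mainly by the unfolded protein response. Pluripotent cells are known for high levels of several constitutive chaperones.

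Values are log2 expression as deposited, and a change is one group mean minus another. Array medians lay between 5.22 and 5.27. Background was gauged from 1194 genes of olfactory and vomeronasal receptors, whose means had a 95th percentile of 4.94, and all 8 chaperone genes had means above it. All 10 epiblast stem cell markers were above it as well. Of 8 markers of naive embryonic stem cells, 4 were above it, Tfcp2l1 (6.29), Klf2 (5.54), Tbx3 (5.05) and Klf4 (4.965). Zfp42, Esrrb, Dppa3 and Prdm14 were not. Of 9 markers of fibroblasts or feeder cells, 3 were above it, Thy1 (7.54), Col1a1 (5.36) and Col1a2 (5.05). Dcn, Lum, Postn and Col3a1 were among those that were not. Of the markers of blood cells, 0 of 4 were above it. As a check of the treatment, the Wnt target Axin2 had a CHIR99021 change of 1.06 (SE 0.10) without XAV939 and 0.72 (SE 0.10) with it, and both passed (limma adjusted p = 4.825e-05 and 0.00375). Its XAV939 change was -0.22 (SE 0.10) without CHIR99021 and -0.57 (SE 0.10) with it, and neither passed (limma adjusted p = 0.418 and 0.0788). Over both CHIR99021 backgrounds, 6 arrays against 6, the XAV939 effect on Axin2 was -0.40 (SE 0.07) and passed (limma adjusted p = 0.037). In these bulk samples, fewer cells that express a gene and less RNA per cell cannot be told apart.

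Of the 8 chaperone genes, 2 had a change that passed the test, each in a single contrast. Dnajb4, a J-domain co-chaperone, was lower with both compounds than with XAV939 alone, by 0.49 on the log2 scale. Bag3, a nucleotide exchange factor of HSP70 that is strongly induced by stress, was higher with CHIR99021 over both XAV939 backgrounds, by 0.32. Over all genes, 0.236% passed in the contrast of the Dnajb4 call and 1.59% in that of the Bag3 call. Both calls ended when certain single arrays were left out, and neither held against a fold of at least 1.5. Dnajb1, Hspa8, Hsph1, Hspd1, Hspe1 and Hspa5 passed in none of 8 contrasts. These contrasts were 5 comparisons between pairs of groups, the interaction (the change with CHIR99021 in XAV939-treated cells minus the change in cells without XAV939) and the main effects of CHIR99021 and XAV939, each 6 arrays against 6. A gene passed at a limma adjusted p under 0.05 after Benjamini-Hochberg adjustment over all 19938 genes.

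**Figure D1:**
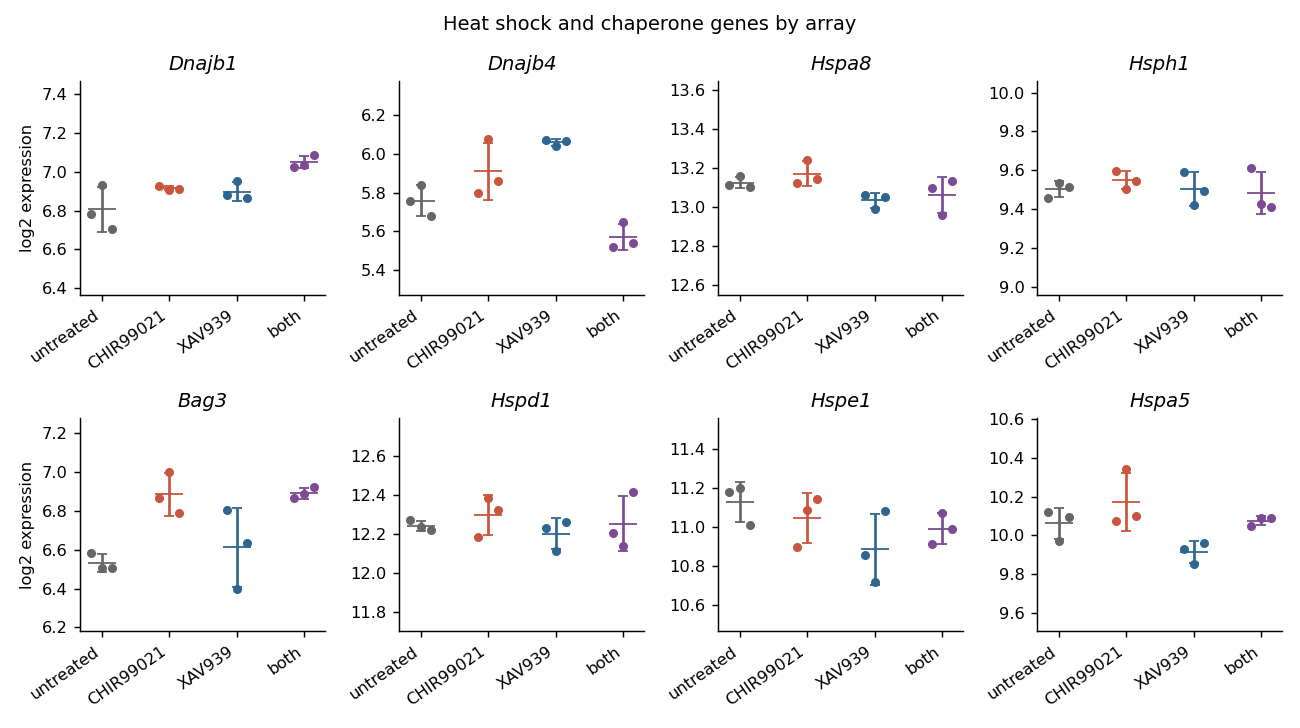
Log2 expression of the 8 measured genes (vertical axes, each spanning the same range) in untreated, CHIR99021, XAV939 and both-compound arrays. Points are arrays, the wide mark is the mean and the bar is 1 SD (n = 3). Dnajb4 is lowest with both compounds (5.52 to 5.65), and the 6 Bag3 values with CHIR99021 lie between 6.79 and 7.0.

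Dnajb4 encodes a J-domain protein of the cytosol and nucleus that delivers unfolded proteins to HSP70 and stimulates its ATPase. Its expression was 5.76, 5.84 and 5.68 in the 3 untreated arrays, and 5.80, 6.07 and 5.86 with CHIR99021. It was 6.07, 6.04 and 6.06 with XAV939, and 5.52, 5.65 and 5.54 with both compounds. The 3 arrays with both compounds were thus the lowest of the 12, and did not overlap those of any other group, while the XAV939 arrays were all above the untreated ones and overlapped those with CHIR99021.

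With XAV939 present, Dnajb4 fell with CHIR99021 from 6.06 ± 0.02 (SD, n = 3) to 5.57 ± 0.07 (SD, n = 3), a change of -0.49 (SE 0.08, limma adjusted p = 0.0151) and 0.713 times the level on the linear scale. Of the 8 genes, Dnajb4 was the 1 called lower in this comparison and none was called higher, against 0.135% of all genes called lower and 0.1% called higher (0.236% in all). An unadjusted p under 0.05 was found for 2 members (Dnajb4 and Bag3), against 9.69% of all genes. The call ended without XAV939 replicates 1, 2 or 3 (adjusted p = 0.0713, 0.0523 and 0.0614) without replicates 1 or 3 of both compounds (adjusted p = 0.0678 and 0.0833), or without untreated replicate 3 and XAV939 replicate 2 together (adjusted p = 0.0641). The change stayed between -0.53 and -0.46 in all 26 alternative fits. A test against a fold of at least 1.5 did not call it.

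Without XAV939, the CHIR99021 change of Dnajb4 was 0.15 (SE 0.08) and did not pass (limma adjusted p = 0.552). The XAV939 change was 0.30 (SE 0.08) in cells without CHIR99021 (limma adjusted p = 0.251) and -0.34 (SE 0.08) in cells with it (limma adjusted p = 0.202). Neither passed. Each compound alone therefore gave a value above 0 for Dnajb4, and adding the second compound gave a value below 0. The interaction was -0.64 (SE 0.12, 95% interval -0.88 to -0.40). Its unadjusted p of 4.36e-05 was the second smallest of 19938 genes, yet it did not pass (limma adjusted p = 0.352, between 0.18 and 0.995 over the alternatives other than the fold threshold). No gene was called for the interaction (0%), while 4.94% of genes had an unadjusted p under 0.05.

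Dnajb4 overlaps the gene Fubp1 in the RefSeq annotation, and whether the probes tell strands apart is not given in the sources used here. Fubp1, measured by its own probe, had a change of 0.01 (SE 0.07) for both compounds against XAV939, where Dnajb4 had -0.49. The lncRNA gene Gm40180, which also overlaps Dnajb4, was not analysed here.

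The promoter windows are shown for Dnajb4 because it was the gene with a call between 2 groups, and were searched for the heat shock element. Windows run from 250 bases before to 50 after a start site and come from RefSeq on GRCm38.p6, which had 11 windows for 7 of the 10 genes. The heat shock element was searched on both strands as GAANNTTC or TTCNNGAA (2 units, in 15.1% of all 32851 windows) and as the 3-unit form with alternating GAA and TTC, each 2 bases apart and GAA at both ends (in 0.603%). A 3-unit match always holds 2-unit matches. Capitals mark matches, and positions count from the start site at 0. Dnajb4 has windows at chr3:152210034-152210333 and chr3:152193796-152194095, both on the minus strand, and the second holds a 2-unit match from -14 to -7 while the first holds none.
Dnajb4, first window: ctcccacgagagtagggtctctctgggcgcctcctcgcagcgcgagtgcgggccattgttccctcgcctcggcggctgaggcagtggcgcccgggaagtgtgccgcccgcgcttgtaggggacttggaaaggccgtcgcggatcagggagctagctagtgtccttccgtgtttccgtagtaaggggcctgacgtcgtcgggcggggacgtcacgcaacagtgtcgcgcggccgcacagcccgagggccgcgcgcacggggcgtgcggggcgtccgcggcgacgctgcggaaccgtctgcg
Dnajb4, second window: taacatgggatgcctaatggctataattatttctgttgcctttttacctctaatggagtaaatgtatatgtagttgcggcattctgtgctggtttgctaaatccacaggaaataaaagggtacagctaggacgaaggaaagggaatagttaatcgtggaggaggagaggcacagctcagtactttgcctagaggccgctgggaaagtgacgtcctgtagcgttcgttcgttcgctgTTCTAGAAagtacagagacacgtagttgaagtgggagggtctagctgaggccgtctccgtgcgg
A match is a description of the letters and not a site shown to be bound.

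Among 11586 other genes above the background measure, the 5 with the highest Pearson correlation with Dnajb4 over the 12 arrays were Atxn7l1 (r = 0.937), Gm14164 (r = 0.931), Wdr13 (r = 0.886), Noct (r = 0.864) and Stxbp4 (r = 0.836). These values are descriptions over arrays of 4 groups. The genes were chosen for this likeness, so their group means and changes restate it and are given without a test. For Gm14164 the group means were 7.38 untreated, 7.71 after CHIR99021, 7.80 after XAV939 and 7.05 after both, and for Atxn7l1 they were 8.48, 8.54, 8.65 and 8.32.

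**Figure D2:**
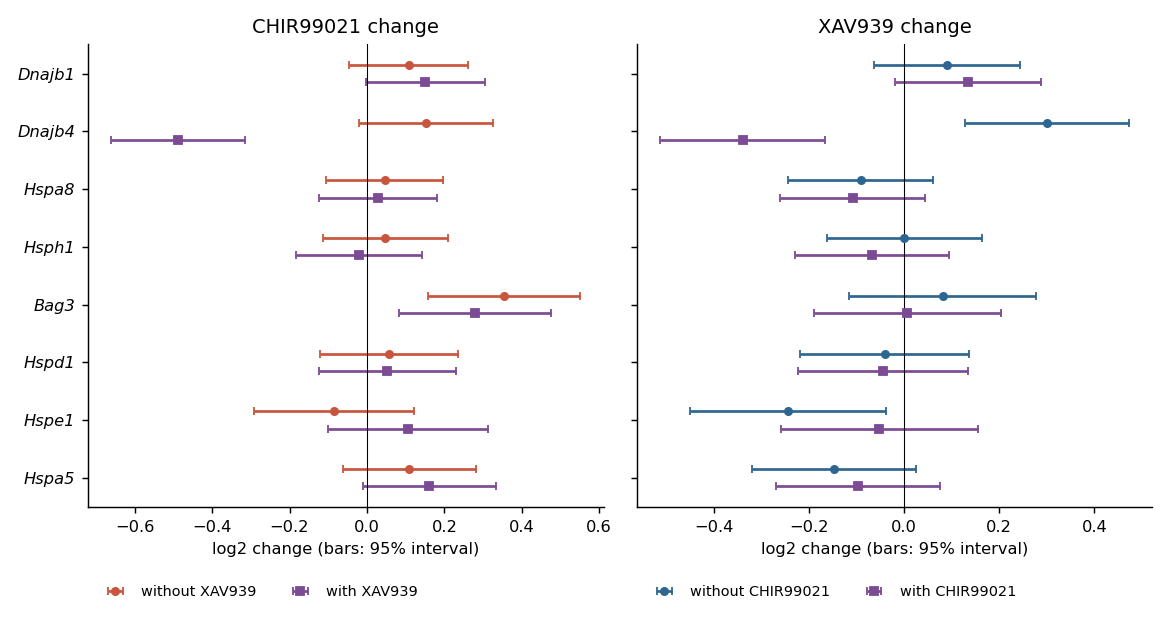
Log2 change (horizontal axes) of each gene with CHIR99021, without and with XAV939, and with XAV939, without and with CHIR99021. Points are differences of means of 3 arrays and bars are 95% intervals from the limma fit; the Dnajb4 points lie on opposite sides of 0 in both panels (0.15 and -0.49, 0.30 and -0.34), and those of Bag3 with CHIR99021 lie on the same side (0.35 and 0.28).

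Dnajb1, the major stress-inducible J-domain partner of cytosolic HSP70, was highest with both compounds. It was at 6.78, 6.93 and 6.71 untreated, at 6.93, 6.91 and 6.91 with CHIR99021, at 6.88, 6.95 and 6.86 with XAV939 and at 7.03, 7.04 and 7.08 with both. The 3 arrays with both compounds were above all others. The change for both against untreated was 0.24 (SE 0.07), which did not pass (limma adjusted p = 0.0957), and the interaction was 0.04 (SE 0.10). No member was called in this comparison, against 1.13% of all genes (0.818% higher and 0.311% lower), while 3 members (Dnajb1, Dnajb4 and Bag3) and 18.7% of genes had an unadjusted p under 0.05. Dnajb1 and Dnajb4, which are close relatives, thus had values on opposite sides of 0 for both compounds against untreated (0.24 and -0.19), a difference between genes that was not tested.

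Bag3 encodes a co-chaperone that releases ADP from HSP70, links it to small heat shock proteins and directs clients to autophagy. Its expression was 6.58, 6.50 and 6.50 in untreated arrays, and 6.86, 7.0 and 6.79 with CHIR99021. It was 6.80, 6.40 and 6.64 with XAV939, and 6.86, 6.89 and 6.92 with both compounds. The 2 groups with CHIR99021 were above the untreated group without overlap, and the XAV939 arrays were spread most widely, with replicate 1 inside the range of the arrays with CHIR99021.

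Over both backgrounds, Bag3 was 6.40 at lowest, 6.54 in the median and 6.80 at highest in the 6 arrays without CHIR99021, and 6.79, 6.88 and 7.0 in the 6 with it. The main effect of CHIR99021 was 0.32 (SE 0.07, limma adjusted p = 0.0203), a level 1.25 times as high on the linear scale. An unadjusted p under 0.05 for this effect was found for 4 members (Dnajb1, Dnajb4, Bag3 and Hspa5), against 14% of all genes. Dnajb4 was below 0 there (-0.17, SE 0.06) and the others were above. Bag3 was the 1 member called higher for this effect and no member was called lower, against 0.777% of all genes called higher and 0.818% lower (1.59% in all). The call ended without untreated replicates 2 or 3 (adjusted p = 0.0522 and 0.0517), without CHIR99021 replicate 2 (adjusted p = 0.0562) or without replicate 3 of both compounds (adjusted p = 0.0516), and when untreated replicate 3 and XAV939 replicate 2 were both left out (adjusted p = 0.0749). These 2 arrays had the smallest spread of values over all probes (SD 2.14, against 2.16 to 2.21 in the others). With array SD as a covariate the effect was 0.25 and did not pass (adjusted p = 0.112). Over the 25 alternatives the effect lay between 0.25 and 0.36.

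The CHIR99021 change of Bag3 was 0.35 (SE 0.09) without XAV939 and 0.28 (SE 0.09) with it, in comparisons that share no array. Neither passed alone (limma adjusted p = 0.125 and 0.316). Among the 8 genes none was called with CHIR99021 against untreated, where 0.421% of all genes were (0.256% higher and 0.166% lower). Bag3 was the 1 member with an unadjusted p under 0.05 there, against 10.3% of genes. For both compounds against untreated the Bag3 change was 0.36 (limma adjusted p = 0.065), and it passed in 4 of 26 alternatives (adjusted p down to 0.0335). The interaction was -0.07 (95% interval -0.35 to 0.20), so no difference between the 2 backgrounds was detectable within that interval. The XAV939 change of Bag3 was 0.08 (SE 0.09) without CHIR99021.

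The mean level of the naive stem cell markers was not tested between groups. It ranged from 4.89 to 4.97 in untreated arrays, 5.0 to 5.14 with CHIR99021, 4.82 to 4.98 with XAV939 and 4.92 to 5.05 with both compounds, so the CHIR99021 arrays were above the untreated ones, and the arrays with both compounds overlapped the untreated and XAV939 arrays. The mean of the epiblast markers ranged from 10.01 to 10.06 in untreated arrays, 10.04 to 10.08 with CHIR99021, 10.06 to 10.13 with XAV939 and 9.98 to 10.08 with both. The mean of the fibroblast markers ranged from 4.97 to 5.02 in untreated arrays, 4.88 to 4.94 with CHIR99021, 4.91 to 4.93 with XAV939 and 4.85 to 4.94 with both. The arrays of every treated group were thus below the untreated ones for the fibroblast mean, which was not tested either. Of these 9 markers, 3 were above the background measure. For the main effect of CHIR99021, 5 of the 8 naive markers had values above 0 and 3 below. Tbx3 (0.40, SE 0.08) and Klf2 (0.21, SE 0.05) were called higher, and the other 6, Prdm14 at -0.12 (SE 0.06) among them, were not called. Over all genes, 0.777% were called higher for this effect (1.59% in all). An unadjusted p under 0.05 was found for 5 of the 8 naive markers (62.5%), against 14% of all genes. The part of these markers in the Bag3 result was not tested.

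The Bag3 window is printed as that of the second gene with a call, at chr7:128523333-128523632 on the plus strand.
Bag3: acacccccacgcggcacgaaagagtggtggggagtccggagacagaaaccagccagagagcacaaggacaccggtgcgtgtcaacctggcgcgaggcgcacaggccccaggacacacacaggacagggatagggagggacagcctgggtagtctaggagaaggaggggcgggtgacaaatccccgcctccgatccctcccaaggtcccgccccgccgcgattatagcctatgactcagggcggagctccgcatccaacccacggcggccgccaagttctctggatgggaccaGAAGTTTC
It holds a 2-unit heat shock element match from 42 to 49, after the start site. A TCF/LEF site, the element through which beta-catenin acts, was searched as CTTTGAA or CTTTGAT on both strands. It is in 8.65% of all windows, and these letters are in none of the 11 windows of the members, which says nothing of sequence outside them.

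**Figure D3:**
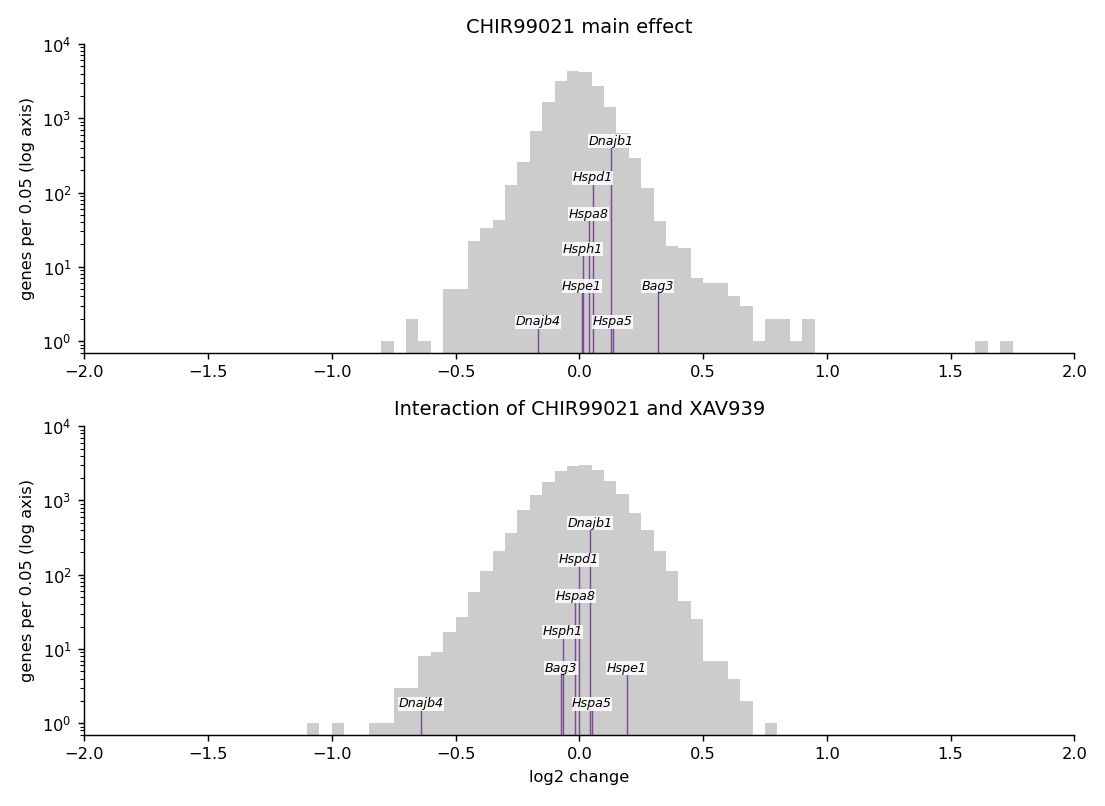
Distribution of the CHIR99021 main effect and of the interaction over 19938 genes (grey bars, genes per 0.05 on a log axis; horizontal axis, log2 change), with the 8 chaperone genes marked at heights chosen only to separate the names. Bag3 lies at 0.32 for the main effect and Dnajb4 at -0.64 for the interaction; the other genes lie in the body of each distribution.

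Hspa8 encodes the constitutive HSP70 of the cytosol, which folds new proteins and drives chaperone-mediated autophagy. It was at 13.11, 13.16 and 13.10 untreated, 13.12, 13.24 and 13.15 with CHIR99021, 13.06, 12.99 and 13.05 with XAV939, and 13.10, 12.96 and 13.13 with both compounds. The XAV939 arrays were all below the untreated ones, by a margin smaller than the spread within the group given both compounds. The XAV939 change was -0.09 (SE 0.07), the main effect of XAV939 was -0.10 (SE 0.05, limma adjusted p = 0.327), and the CHIR99021 change was 0.05 (SE 0.07).

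Hsph1 encodes HSP105, a member of the HSP110 family that exchanges the nucleotide of HSP70 and holds unfolded proteins in solution. Its 12 values lay between 9.41 and 9.61, and its group means between 9.48 and 9.55. The groups overlapped in every comparison, and the CHIR99021 change was 0.05 (SE 0.08), with a 95% interval from -0.11 to 0.21. Both RefSeq windows of Hsph1, which start 21 bases apart, hold the 3-unit match TTCTGGAAAGTTC, in the first one from 36 to 48.

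Hspd1 (HSP60) and Hspe1 (HSP10) encode the barrel and the lid of the mitochondrial chaperonin and lie head to head with overlapping gene ends. The window is shown because 285 of its 300 bases are shared, on opposite strands, by an Hspd1 window and the Hspe1 window. It is printed as read for Hspe1, at chr1:55087898-55088197 on the plus strand.
Hspe1: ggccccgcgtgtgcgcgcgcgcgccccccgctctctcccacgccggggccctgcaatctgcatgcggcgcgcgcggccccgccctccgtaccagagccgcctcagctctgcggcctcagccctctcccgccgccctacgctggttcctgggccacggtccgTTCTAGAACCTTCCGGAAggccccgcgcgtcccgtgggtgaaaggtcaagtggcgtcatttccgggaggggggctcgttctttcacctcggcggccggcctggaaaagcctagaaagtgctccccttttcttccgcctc
It holds 2 overlapping 3-unit heat shock element matches, from -89 to -77 and from -84 to -72.

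Hspd1 was at 12.27, 12.23 and 12.22 untreated, 12.18, 12.38 and 12.32 with CHIR99021, 12.23, 12.11 and 12.26 with XAV939, and 12.21, 12.14 and 12.41 with both compounds. The groups overlapped throughout, and the 4 group means lay between 12.20 and 12.30. Hspe1 was at 11.18, 11.20 and 11.01 untreated, 10.90, 11.09 and 11.15 with CHIR99021, 10.86, 10.72 and 11.08 with XAV939, and 10.91, 11.07 and 10.99 with both. Hspe1 was lowest with XAV939, where 2 of 3 arrays were below all untreated arrays.

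The XAV939 change of Hspe1 was -0.24 (SE 0.10), which did not pass (limma adjusted p = 0.379), and that of Hspd1 was -0.04 (SE 0.08). No gene was called with XAV939 against untreated (0%), and 11.2% of genes had an unadjusted p under 0.05, as did 2 of the 8 members (Dnajb4 and Hspe1). For the main effect of XAV939, Hspe1 had -0.15 (SE 0.07, limma adjusted p = 0.291). Hspe1, Hspa5 and Dnajb1 had an unadjusted p under 0.05, as did 16.9% of all genes. No member was called for this effect, against 0.331% of all genes (0.211% higher and 0.12% lower). The pair with a shared promoter region therefore had XAV939 values of unequal size, and the difference between the 2 genes was not tested.

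Hspa8, Hspd1 and Hspe1 had more than 1 probe annotated to them, and these genes have near-identical copies that probes may share. The 3 probes of Hspa8 gave XAV939 changes of -0.09, -0.08 and -0.18, the 2 of Hspe1 gave -0.24 and -0.19, and the 2 of Hspd1 gave -0.04 and -0.01. None of the 7 probes was called in any contrast. Signs differed between probes for Hspd1 in 3 contrasts, both compounds against untreated (0.01 and -0.03), both against XAV939 (0.05 and -0.02) and the main effect of CHIR99021 (0.05 and -0.0001). They differed for Hspa8 in 2, both against XAV939 (0.03, -0.01 and 0.06) and the interaction (-0.02, -0.04 and 0.05), so these values have no settled direction. The correlation between probes of the same gene over the 12 arrays was between 0.85 and 0.944, as a description of probes hybridised to the same samples.

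**Figure D4:**
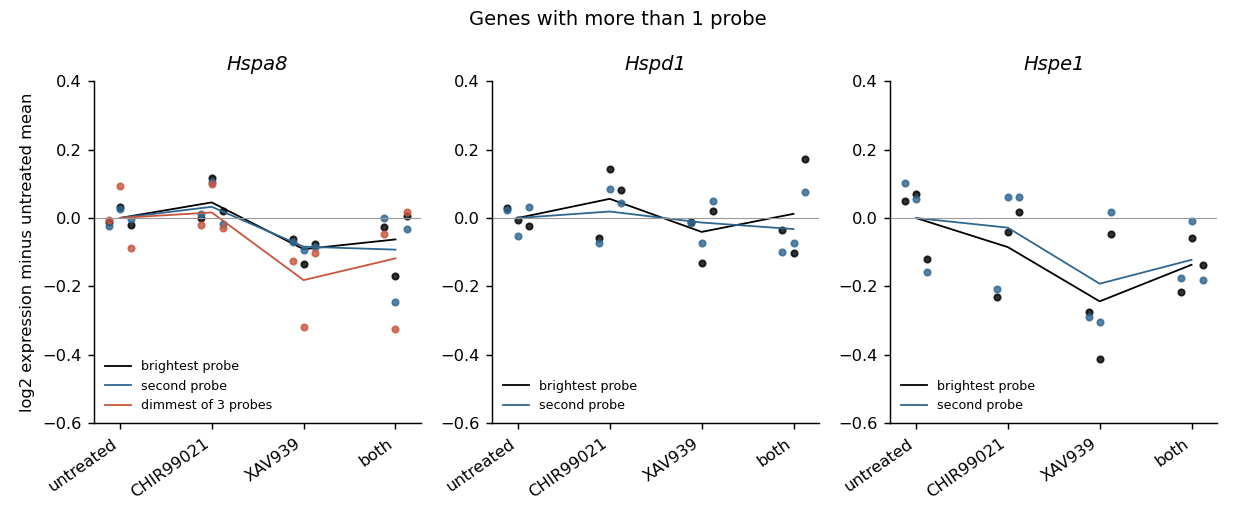
Log2 expression of each probe of Hspa8, Hspd1 and Hspe1, minus that probe's mean in untreated arrays (vertical axis), by group. Points are arrays and lines join group means; the probes of Hspe1 have XAV939 means of -0.24 and -0.19 relative to untreated, and those of Hspd1 of -0.04 and -0.01.

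Hspa5 encodes BiP, the HSP70 of the endoplasmic reticulum and a standard target of the unfolded protein response. Its window is shown for an element of the unfolded protein response, at chr2:34771840-34772139 on the plus strand.
Hspa5: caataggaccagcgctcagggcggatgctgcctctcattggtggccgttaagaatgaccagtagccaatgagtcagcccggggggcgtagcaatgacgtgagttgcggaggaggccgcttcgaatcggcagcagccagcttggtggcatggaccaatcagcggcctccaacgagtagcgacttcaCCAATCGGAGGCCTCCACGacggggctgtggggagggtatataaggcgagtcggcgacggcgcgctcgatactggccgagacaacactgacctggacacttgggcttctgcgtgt
The capitals mark a match to the ER stress response element, searched on both strands as CCAAT and CCACG with any 9 bases between them, from -65 to -47. It is in 0.119% of all windows and in no other of the 11 windows, and the Hspa5 window holds no heat shock element match. Neither window of Dnajb1 nor the first window of Hspd1 holds a match to either element.

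Hspa5 was at 10.12, 9.97 and 10.10 untreated, 10.07, 10.34 and 10.10 with CHIR99021, 9.93, 9.85 and 9.96 with XAV939, and 10.05, 10.09 and 10.09 with both compounds. The XAV939 arrays were all below those of every other group. The XAV939 change was -0.15 (SE 0.08, limma adjusted p = 0.508), the change for both compounds against XAV939 was 0.16 (SE 0.08, limma adjusted p = 0.55), and the main effect of CHIR99021 was 0.13 (SE 0.06, limma adjusted p = 0.297). None passed. The gene Rabepk, which overlaps Hspa5 in the annotation, had an XAV939 change of -0.06 (SE 0.10).

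Counted over the 8 genes, groups did not overlap for 1 gene with CHIR99021 against untreated (Bag3; 16.3% of all genes), for 3 with XAV939 against untreated (Dnajb4, Hspa8 and Hspa5; 17.6%) and for 3 with both compounds against untreated (Dnajb1, Dnajb4 and Bag3; 25%). They did not overlap for 4 with both against XAV939 (Dnajb1, Dnajb4, Bag3 and Hspa5; 14.3%) and for 2 with both against CHIR99021 (Dnajb1 and Dnajb4; 16.1%). In the last comparison no member was called, against 0.0251% of all genes, and 1 (Dnajb4) had an unadjusted p under 0.05, against 11% of all genes. The comparisons against untreated cells share the untreated arrays. The median change of the 8 genes was 0.08 with CHIR99021, against -0.01 over all genes, and -0.02 with XAV939. With both compounds against untreated it was within 0.01 of 0 for the members and for all genes.

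The other genes of the protein folding network were taken from 10 lists, which together held 135 genes, 132 of them measured and 118 above the background measure. Over the 8 contrasts, 1 of the 132 genes was called, for the main effect of CHIR99021, where 1.59% of all genes were called, so the lists held no more calls than that share. This was Dnajc22, which encodes a J-domain protein with membrane-spanning segments, and it fell with CHIR99021. It was 6.0 at lowest, 6.14 in the median and 6.32 at highest in the 6 arrays without CHIR99021, and 5.71, 5.84 and 6.04 in the 6 with it. The main effect was -0.29 (SE 0.07, limma adjusted p = 0.0389). The call held in 10 of 25 alternatives, with adjusted p between 0.0227 and 0.187 outside the fold threshold. It ended without any 1 of the 3 untreated or the 3 CHIR99021 arrays, without XAV939 replicates 2 or 3 and without replicates 1 or 2 of both compounds. It also ended with median centring (adjusted p = 0.0503), array weights (0.058), array SD as a covariate (0.148) and when untreated replicate 3 and XAV939 replicate 2 were both left out (0.187).

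Genes that HSF1 induces in the heat shock response held 15 measured members, none called in any contrast. Their median changes were 0.01 with CHIR99021 and -0.01 with XAV939. Hspa1a, the classic stress-inducible HSP70, was at 6.27, 6.31 and 6.11 untreated and at 5.98, 5.76 and 5.93 with both compounds. These groups did not overlap, as was the case for 25% of all genes in this comparison. The change of Hspa1a was -0.34 (SE 0.11) and did not pass (limma adjusted p = 0.107). Hspb1, the small heat shock protein HSP27, had -0.31 (SE 0.10) for both compounds against XAV939 (limma adjusted p = 0.286). Both were named for their small p. In the comparison given for Hspb1, both compounds against XAV939, 9 of 15 list genes had values above 0 (median 0.05), so the list did not share its direction. In that given for Hspa1a, both compounds against untreated, 6 of 15 had values above 0 (median -0.02, against -0.01 over all genes).

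In the HSP70 family (11 measured), Hspa1l, a form of the testis, had a main effect of CHIR99021 of -0.35 (SE 0.09, limma adjusted p = 0.0574) and Hspa13, a microsomal form, of 0.22 (SE 0.06, limma adjusted p = 0.0718). The mean of Hspa1l was 5.21, against 4.94 for the background measure. Of 41 J-domain genes, Dnajb14, of the endoplasmic reticulum membrane, had a change of 0.37 (SE 0.09) with both compounds against untreated (limma adjusted p = 0.06). For the main effect of CHIR99021, 10 of the 41 (24.4%) had an unadjusted p under 0.05, against 14% of all genes. Values above 0 were found for 28 of the 41, while Dnajc22, the gene called, was below 0. With both compounds against untreated the share was 7.32%, against 18.7% of all genes. The 9 BAG and exchange factor genes other than Bag3 and Hsph1 had no call, and the largest value among those named by the rule was 0.23 (SE 0.08) for Grpel2, a mitochondrial exchange factor, with CHIR99021 against untreated.

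Of 23 genes of endoplasmic reticulum chaperones and the unfolded protein response, none was called with CHIR99021 against untreated (0.421% of all genes) or in any other contrast. With CHIR99021, 19 had values above 0, and 3 of the 23 (13%) had an unadjusted p under 0.05, against 10.3% of all genes. Against untreated, that share of the 23 was 21.7% with XAV939 (11.2% of all genes) and 26.1% with both compounds (18.7%). For the main effect of CHIR99021 it was 26.1% (14% of all genes). It was 4.35% with both compounds against CHIR99021 (11%) and 0% for the interaction (4.94%) of these 23 genes. Their medians, where those of all genes lay within 0.01 of 0, were 0.07 for CHIR99021, 0.07 for XAV939 and 0.11 for both compounds, each against untreated, and these comparisons share the untreated arrays. Ddit3, the stress factor CHOP, had 0.53 (SE 0.16), Atf6, a sensor of the response, 0.28 (SE 0.07), and Hyou1, a large chaperone induced by the response, 0.28 (SE 0.10) with both compounds against untreated, and none passed (limma adjusted p = 0.0994, 0.0637 and 0.131). Untreated replicate 3 was lowest for Ddit3, at 8.57 against 9.10 and 9.23. Hspa5, the leading chaperone of this response, had 0.01 (SE 0.08) in the same comparison.

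Chaperonin TRiC and prefoldin genes (14 measured) had no member with an unadjusted p under 0.05 in any contrast. Over all genes that share was between 4.94% (interaction) and 18.7% (both compounds against untreated). In these genes the main effect of CHIR99021 had a median of 0.04. HSP90 and its co-chaperones (17 measured) had a median of 0.07 for this effect, with 15 above 0 and none called, against 1.59% of all genes. Mitochondrial chaperones and proteases (11 measured) had no call, and Lonp1, the matrix protease, had 0.25 (SE 0.08) with both compounds against untreated (limma adjusted p = 0.0953). Small heat shock protein genes (10 measured, 5 above the background measure) had no call, and Hspb6 had an XAV939 change of 0.47 (SE 0.12, limma adjusted p = 0.221). Of these 10, 40% had an unadjusted p under 0.05 with both compounds against XAV939, where 9.69% of all genes did. The share was 30% with XAV939 against untreated (11.2% of all genes) and 0% with CHIR99021 against untreated (10.3%). Hspb3, Hspb7 and Hspb9, named by the rule, had means of 4.66, 4.0 and 4.62, below the background measure. Among heat shock factors and regulators (5 measured), Hsf2 had a main effect of CHIR99021 of 0.12 (SE 0.06, limma adjusted p = 0.384) and Hsf4 a main effect of XAV939 of -0.22 (SE 0.05, limma adjusted p = 0.0646). Hsf4 was close to the background measure of 4.94, with a mean of 5.08 and XAV939 arrays at 4.91, 4.97 and 4.95.

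**Figure D5:**
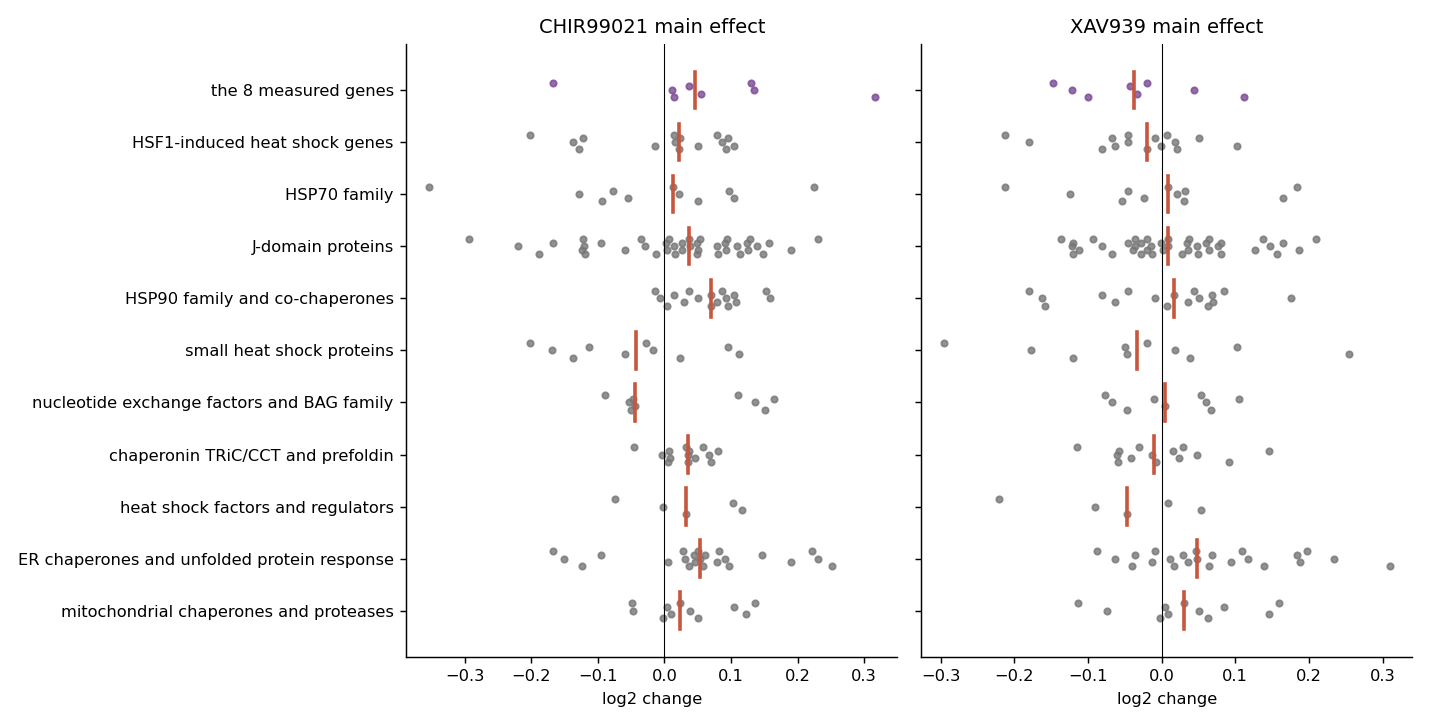
Log2 main effects (horizontal axes) of CHIR99021 and XAV939 for the 8 chaperone genes and for the genes of the 10 lists. Each point is a gene and the vertical mark is the median; Bag3 is the rightmost of the 8 genes with CHIR99021 at 0.32, and Dnajc22 the leftmost J-domain gene at -0.29.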

How the data were processed

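The authors deposited log2 expression values per probe of 12 Affymetrix arrays (biotin label, 1 sample per array, per the labels' protocols). The log2 base was inferred from the range, 2.52 to 14.3. The submitters' processing notes name Partek, and the background correction, normalization and build are not given in the sources used here. Arrays carry no read depth, and their number limits the precision.

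Of 35399 probes, 21789 had 1 gene symbol in the platform annotation, 1621 several and 11989 none listed. Symbols were updated by gene identifier to RefSeq (GRCm38.p6), except for 91 probes without a match. The brightest probe stood for each of 19938 genes, with no filter on low values. Group means were fitted with limma 3.58.1 (statmod 1.5.0, R 4.3.3; lmFit, eBayes, two-sided), with 8 residual and 8.03 prior degrees of freedom. The scripts were tested on simulated data. Correlations between arrays over genes were between 0.994 and 0.998.

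The genes and lists were chosen with earlier results of these data known. All 10 genes were to be described, with up to 4 genes per list by smallest p, any list gene called, Axin2, and 5 genes correlated with the member of smallest F-test p. Alternatives covered normalization, filters, probe rules, variance models, a replicate block, a fold of 1.5, array spread and omitted arrays. Figures used matplotlib 3.10.9 in Python 3.11.15.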

Additional observations from a re-analysis of the deposited data

Results flagged for a closer look

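The changes of Dnajb4 with each compound had values on opposite sides of 0 with and without the other. Each CHIR99021 array was above the untreated mean and each array with both compounds below the XAV939 mean, with changes of 0.15 and -0.49. Likewise, each XAV939 array was above the untreated mean and each array with both compounds below the CHIR99021 mean, with changes of 0.30 and -0.34. The difference is the interaction, -0.64 in either reading. It was tested with limma and did not pass (adjusted p = 0.352). Among the changes themselves, only the -0.49 passed (limma adjusted p = 0.0151). The CHIR99021 arrays overlapped the untreated ones. Groups of 3 arrays were not searched for outlying samples.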

How the results depend on the processing

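Of 64 changes (8 genes in 8 contrasts), 32 were at least as large as their standard error, and 1 of their 822 values under 26 alternatives changed sign: that of Hspe1 for both compounds against XAV939, at -0.021 with array standard deviation as a covariate. The cause was not tested. The other 32 changes, smaller than their standard error, changed sign in 65 of 818 values and were never called. The number of members called with both compounds against XAV939 (1) became 0 at a fold of at least 1.5 and without untreated array 3 and XAV939 array 2 together, and was 0 to 1 with single arrays left out. For the main effect of CHIR99021 (1) it became 0 under these and with the array covariate, and was 0 to 1 with single arrays left out. With both compounds against untreated (0; 3 members at an unadjusted p under 0.05) it became 1 with median centring, the median filter and array weights, and was 0 to 1 with single arrays left out. Arrays with the same replicate number correlated between -0.25 and 0.20 in their deviations, with 6 of 18 pairs over 0.1. Whether the numbers pair the samples cannot be told from this, because pairs with different numbers were not compared. The replicate block changed no call of a member: Dnajb4 stayed at -0.49 (limma adjusted p = 0.0171) and Bag3 at 0.32 (limma adjusted p = 0.0331). For the main effect of CHIR99021, 2 genes of the other chaperone lists were called under the block and 1 (Dnajc22) without it. Fits to the groups compared alone were not made for the interaction and main effects, which use all 4 groups.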
